A study of Mus musculus with 22 samples.

Results

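Interscapular brown fat (brown adipose tissue, BAT) of untreated CPEB2-WT and CPEB2-KO mice was compared by RNA-seq, with 5 libraries labelled KO against 5 labelled WT. These are all 10 untreated libraries among the 22 of the series, and every gene of their count table entered the comparison. The labels describe male mice of 21 to 25 weeks that received no virus. Per the study, the deletion of Cpeb2 is global, on a C57BL/6 background, the mice came from heterozygous crosses, and food was withdrawn for some hours before the tissue was taken. Since the deletion is present in every tissue and many KO pups die early, the KO group holds surviving mice, and BAT was not targeted alone. The 6 libraries from KO and WT mice of 25 weeks whose BAT had received an adeno-associated virus (AAV) expressing GFP, 3 of each genotype, served as a second cohort. Libraries are named here by group and replicate number, as WT 1 to WT 5 and KO 1 to KO 5.

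CPEB2 belongs to the cytoplasmic polyadenylation element-binding proteins, a family of 4 (CPEB1 to CPEB4) that bind U-rich elements in the 3′ untranslated region of mRNAs and change poly(A) tail length and translation. Brown adipocytes burn fatty acids in abundant mitochondria, where the uncoupling protein UCP1 releases the energy as heat upon β3-adrenergic stimulation. PRDM16 is a transcriptional regulator that holds the brown fat fate against the related muscle fate. Loss of a translational regulator need not alter the abundance of its target mRNAs, and an mRNA count does not report translation.

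The targeted gene separated the groups in 9 of 10 libraries. Cpeb2 (chr5:43233170-43289724, plus strand, GRCm38) stood at 11.7, 9.00, 7.69, 12.4 and 14.3 CPM (counts per 1000000 of the TMM-scaled library total) in WT 1 to WT 5. In KO 1 to KO 5 it stood at 11.7, 5.27, 2.86, 5.78 and 2.10 CPM. The library labelled KO 1 thus lay inside the WT range, and the other 4 lay below every WT library. The log2 fold change was -0.99 ± 0.41 (SE), and -1.46 without that library. Counts were given per gene, so reads from exons outside the deleted part could remain in them, and where the KO counts came from was not tested. The 3 AAV-GFP KO libraries held 5.42 to 5.55 CPM against 10.5 to 14.0 CPM in their WT controls. Each log2 fold change of a gene given below was therefore also computed without the library labelled KO 1, and none of them changed sign.

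Cpeb4, another member of the family, fell into 2 sets of libraries that cut across the genotype labels. Cpeb4 (chr11:31872211-31935634, plus strand) stood at 56.7, 46.3, 2.03, 37.8 and 2.69 CPM in WT 1 to WT 5. It stood at 72.0, 32.0, 2.16, 26.6 and 1.65 CPM in KO 1 to KO 5. WT 3, WT 5, KO 3 and KO 5 therefore held 1.65 to 2.69 CPM and the other 6 libraries 26.6 to 72.0 CPM, with nothing in between. The gap between the highest of the 4 and the lowest of the 6 was 3.30 on the log2 scale, and the next widest gap of any of the 17869 tested genes along the same split was 1.02. In the AAV cohort all 12 libraries held 37.8 to 70.9 CPM of Cpeb4. The groups overlapped fully for this gene, with a log2 fold change of -0.11 ± 1.03 (SE) and an adjusted p of 0.959 (edgeR quasi-likelihood test with Benjamini-Hochberg adjustment, the test used throughout). Cpeb1 had means of 15.6 ± 3.85 (SD, n = 5) in WT and 10.7 ± 3.05 CPM in KO, and Cpeb3 had 23.4 ± 8.92 and 15.9 ± 6.11 CPM, with adjusted p-values of 0.318 and 0.375.

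**Figure D1:**
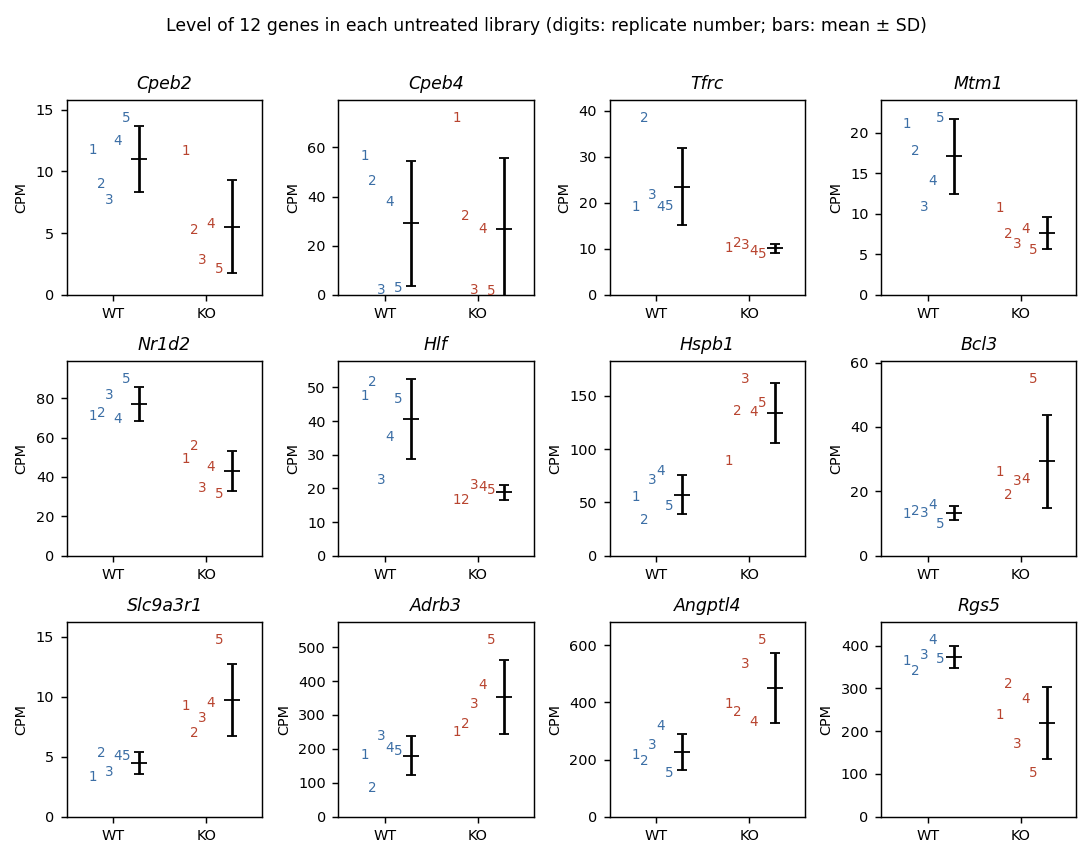
Level of 12 genes in CPM (vertical axes, from 0) in the 5 WT and 5 KO libraries, each drawn as its replicate number, with the group mean and SD as bars. Cpeb2 of the library labelled KO 1 sits among the WT libraries, Cpeb4 is near 0 in WT 3, WT 5, KO 3 and KO 5, and the groups do not overlap for Tfrc, Mtm1, Nr1d2, Hlf, Hspb1, Bcl3, Slc9a3r1, Adrb3, Angptl4 and Rgs5.

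Other properties of the libraries were unevenly spread over the groups. Totals ran from 72740182 to 162721200 counts in WT and from 55320927 to 100216710 in KO, and the summed CPM of 4 Y-linked genes was 0.206 to 1.17 in WT 3, WT 5, KO 1, KO 3, KO 4 and KO 5 and 77.1 to 193 in the other 4, although the labels call all the mice male. The libraries low in Y-linked transcripts held Xist, a transcript of female cells, at 104 to 305 CPM. WT 1, WT 2 and KO 2 held 0.031 to 1.65 CPM of it. By these transcripts WT 3 and WT 5 in WT, and KO 1, KO 3, KO 4 and KO 5 in KO, read as female against their labels. The libraries low in Cpeb4, WT 3, WT 5, KO 3 and KO 5, all lie among them, so the Cpeb4 split and the Y-linked split can only partly be told apart. WT 4 held both Y-linked transcripts (116 CPM) and Xist (14.0 CPM), so its place in the Y-linked split is uncertain. WT 1 and WT 2 stood apart from the other 8 libraries, with a mean log2 CPM over the ribosomal protein genes of 4.89 and 5.11 against 6.23 to 7.08 elsewhere. KO 5 stood apart in base composition. The log2 difference between the tenth of genes highest in GC content and the tenth lowest was 1.98 in KO 5. In the other libraries it ran from -1.08 in WT 1 to 0.84 in KO 3. Fold changes followed base composition: the median log2 fold change of KO against WT went stepwise from -0.60 in the tenth of genes with the lowest GC content to 0.60 in the tenth with the highest. Without WT 1 and WT 2 the same medians ran from -0.39 to 0.54, and in the AAV-GFP cohort from 0.07 to -0.09. The part of base composition, of sex and of WT 1, WT 2 and KO 5 in the results below was not tested beyond the values given beside them. With these libraries the Y-linked split and the genotype can only partly be told apart.

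**Figure D2:**
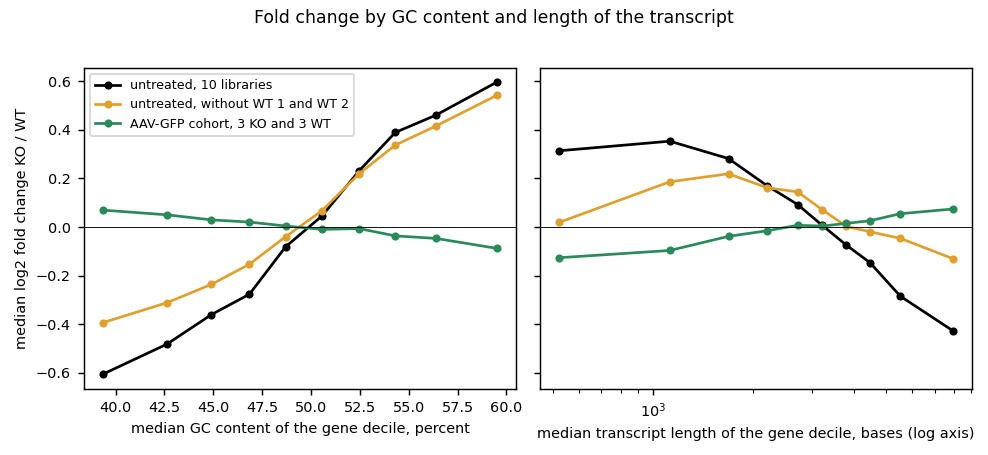
Median log2 fold change of KO against WT (vertical axes) over 10 equal bins of the tested genes by GC content (left, percent) and by length (right, bases, log axis) of the longest transcript, for all 10 untreated libraries, for the 8 left without WT 1 and WT 2, and for the AAV-GFP cohort. In the untreated cohort the medians climb with GC content, from -0.60 to 0.60 with 10 libraries, and in the AAV-GFP cohort they stay between -0.09 and 0.07.

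Over all genes, the untreated comparison gave no call at an adjusted p of 0.05. With edgeR, 0 of 17869 tested genes passed (0%), and DESeq2 and limma-voom also gave 0. The smallest adjusted p was 0.305. At the wider threshold of the study, a 2-fold change and an adjusted p of 0.5, 1080 genes (6.04%) were called higher and 844 (4.72%) lower in KO. The study itself, which used the iDEP tool, reported fewer genes in both directions at that threshold, and why the counts differ was not tested. At an unadjusted p under 0.05, 892 genes (4.99%) were higher and 1944 (10.9%) lower. For 88 genes (0.492%) every KO library lay above every WT library, and for 162 (0.907%) every KO library lay below. Without WT 1 and WT 2, and likewise with a covariate for Y-linked transcripts or with the GC and length trend removed, no gene met the joint threshold of 2-fold and an adjusted p of 0.5 in either direction. The same held with WT 1, WT 2 or KO 5 left out alone. The values below are therefore measured differences, none of which passed an adjusted p of 0.05.

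**Figure D3:**
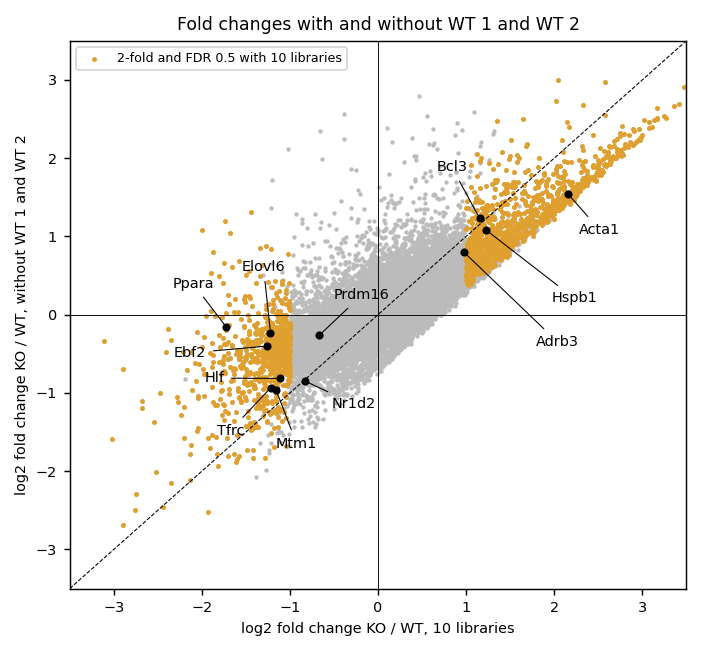
Log2 fold change of KO against WT for each tested gene with all 10 libraries (horizontal axis) and without WT 1 and WT 2 (vertical axis), with the genes of the 2-fold and adjusted p 0.5 threshold in orange and the dashed line marking equal values. Ppara, Ebf2 and Elovl6 lie far from the line, at -1.72, -1.26 and -1.22 against -0.16, -0.40 and -0.23, while Nr1d2 and Bcl3 lie on or near it. Genes beyond the axes are not drawn.

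Some genes kept their direction and an unadjusted p under 0.05 in each of 3 fits, with all 10 libraries, without WT 1 and WT 2, and with the Y-linked covariate. There were 124 such genes higher and 97 lower in KO. The fits share most libraries, so these counts carry no independent support. The 10 genes on each side with the smallest largest p over the 3 fits are described next. Their median log2 fold changes were 1.13 and -1.14. All 20 kept an unadjusted p under 0.05 without the library labelled KO 1, and likewise without WT 1, WT 2 and that library together. Since these genes were picked by their p in fits that share most of those libraries, this carries no independent support. The 20 genes also stood at the ends of the GC range. Their median was 58.3% for the higher and 41.9% for the lower genes, against 49.7% over all tested genes. With the GC and length trend removed, the medians were 0.47 and -0.53, and 2 of the 10 higher and 7 of the 10 lower genes kept an unadjusted p under 0.05.

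Among the genes lower in KO, the iron importer Tfrc had the smallest unadjusted p of all tested genes (0.000265). Tfrc (chr16:32608920-32632794) encodes the transferrin receptor, which brings transferrin-bound iron into the cell. It stood at 19.1, 38.4, 21.7, 19.0 and 19.3 CPM in WT 1 to WT 5 and at 10.3, 11.2, 10.7, 9.47 and 8.83 CPM in KO 1 to KO 5. No KO library reached the lowest WT library, and the KO values differed from each other by less than 3 CPM. The log2 fold change was -1.22 ± 0.24 (SE) with an adjusted p of 0.305, -0.93 without WT 1 and WT 2, and -0.49 with the GC and length trend removed.

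Nr1d2 and Hlf, a pair of transcription factors of the circadian system, were also lower in every KO library. Nr1d2 encodes REV-ERBβ, a nuclear receptor that represses clock genes. It stood at 70.8, 72.3, 81.8, 69.7 and 89.8 CPM in WT 1 to WT 5 and at 49.0, 55.6, 34.5, 45.2 and 31.2 CPM in KO 1 to KO 5. Its log2 fold change was -0.83 ± 0.22 (SE) with all libraries and -0.85 without WT 1 and WT 2. With the GC and length trend removed it was -0.31, with an unadjusted p of 0.143 from the same edgeR test. Hlf, a PAR bZIP factor that transmits clock output, had 47.5, 51.5, 22.4, 35.3 and 46.6 CPM in WT and 16.5, 16.4, 21.1, 20.5 and 19.4 CPM in KO. WT 3 lay within 2 CPM of KO 3, and the other WT libraries were well above. The log2 fold change of Hlf was -1.11 ± 0.25 (SE), and -0.56 with the GC and length trend removed.

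The other 7 lower genes had varied roles. Mtm1, the phosphoinositide phosphatase myotubularin, had 17.1 ± 4.64 CPM (SD, n = 5) in WT and 7.66 ± 2.00 CPM in KO. Svip, an inhibitor of the VCP ATPase in endoplasmic reticulum-associated degradation, had 20.2 ± 3.25 and 11.1 ± 1.89 CPM. Ttc8, a subunit of the BBSome that serves traffic to the cilium, had 12.2 ± 3.05 and 5.96 ± 1.09 CPM, and the groups did not overlap for any of these 3 genes. Ttc8 kept the smallest unadjusted p of the 10 lower genes once the GC and length trend was removed, with a log2 fold change of -0.74. The kinase gene Rps6ka5 (MSK1), the endoplasmic reticulum protein gene Bcap29 and the zinc finger gene Zfp973 did not overlap either, and Megf9 overlapped only through WT 3, at 19.8 CPM.

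Among the genes higher in KO, Slc9a3r1 and Hspb1 had the smallest p-values over the 3 fits. Slc9a3r1 encodes NHERF1, a scaffold that ties membrane transporters to the actin cortex. It stood at 3.28, 5.28, 3.69, 5.02 and 5.06 CPM in WT 1 to WT 5 and at 9.18, 6.96, 8.25, 9.45 and 14.7 CPM in KO 1 to KO 5. All KO libraries lay above all WT libraries, and the log2 fold change was 1.12 ± 0.26 (SE). Hspb1, a small heat shock protein that keeps unfolding proteins from aggregating, had 55.2, 33.5, 70.6, 79.1 and 46.6 CPM in WT and 88.7, 136, 166, 135 and 143 CPM in KO. Its log2 fold change was 1.23 ± 0.27 (SE), and the library labelled KO 1 was the closest to the WT range. Reads of Hspb1 can be split with a near-identical pseudogene, so its level is uncertain.

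Bcl3, a nuclear IκB protein that steers NF-κB target genes, stood at 12.8, 14.0, 13.3, 15.9 and 9.90 CPM in WT and at 25.9, 19.0, 23.1, 23.8 and 54.9 CPM in KO. KO 5 had more than the others, and the remaining KO libraries were still above the WT range. The log2 fold change was 1.15 ± 0.30 (SE), and 0.42 with the GC and length trend removed. Pelo, which rescues stalled ribosomes, had 5.22 ± 1.39 CPM in WT and 9.37 ± 0.903 CPM in KO without overlap. Ralgds, an exchange factor for the Ral GTPases, had 13.0 ± 2.83 and 24.0 ± 6.22 CPM, also without overlap. The RNA-binding protein gene Rbm38 and the palmitoyltransferase gene Zdhhc12 overlapped between groups, while the membrane protein genes Tmem161a, Mfsd13a and Tmem98 did not.

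Several of the genes with the largest fold changes among those without overlap were at low levels or hard to count. On the lower side Zfp973, Zfp969 and Zfp965, KRAB-type zinc finger genes of chromosome 2 with near-identical copies, had log2 fold changes of -2.27, -1.67 and -1.47 and WT means of 2.98, 1.96 and 1.67 CPM. Without WT 1 and WT 2 these values were -1.12, -0.85 and -0.87. Elmod2, which neighbours Ucp1, had 91.7 CPM in WT 2 and 17.4 to 26.4 CPM in the other WT libraries, against 5.50 to 15.8 CPM in KO. Lcorl, Bbof1 and Cwf19l2 had log2 fold changes of -1.33, -1.32 and -1.30, which became -0.51, -0.73 and -0.63 without WT 1 and WT 2. On the higher side the leading genes were Rtn4rl2, a Nogo receptor family gene, at 1.95, the histone H4 genes Hist1h4i and Hist1h4h at 1.52 and 1.29, and Fam83a at 1.22. Histone mRNAs lack poly(A) tails and their genes are near-identical, so these 2 counts are uncertain.

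The gene lists below are described by counts and medians, beside a median log2 fold change of 0.04 over all tested genes and the shares of 4.99% higher and 10.9% lower at an unadjusted p under 0.05. Members other than the most abundant ones were named after their values were seen, because they make up a count. Without WT 1 and WT 2 no member of the fatty acid synthesis, fatty acid oxidation, lipolysis, citric acid cycle, respiratory chain, mitochondrial genome, ribosomal protein, poly(A) tail, immediate early or skeletal muscle list was past an unadjusted p of 0.05. Over all genes that fit gave 313 higher and 121 lower at that p, against 892 and 1944 with all 10 libraries. A count of 0 in a list therefore says little about its members. In bulk tissue fewer cells of a type and less RNA per cell cannot be told apart.

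The identity of the tissue was clear, and the thermogenic list was mixed. Ucp1 stood at 2088, 1444, 4286, 3476 and 4302 CPM in WT 1 to WT 5 and at 2627, 2063, 5114, 6127 and 6700 CPM in KO 1 to KO 5, with overlapping groups and a log2 fold change of 0.54 ± 0.41 (SE). The lipid droplet protein gene Cidea had 1720 ± 312 and 2072 ± 890 CPM (SD, n = 5 each). Of the 22 thermogenic genes, all tested, 2 were higher and 3 lower at an unadjusted p under 0.05, and the list median was -0.31, or -0.10 without WT 1 and WT 2.

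The 2 higher members belong to adrenergic and lipid droplet function. Adrb3 encodes the β3-adrenergic receptor, through which noradrenaline starts thermogenesis. It stood at 182, 84.1, 239, 202 and 193 CPM in WT 1 to WT 5 and at 251, 274, 332, 388 and 521 CPM in KO 1 to KO 5. Every KO library was above every WT library, with a log2 fold change of 0.97 ± 0.31 (SE), and 0.80 without WT 1 and WT 2. Plin5, which ties lipid droplets to mitochondria, had 220 ± 46.4 and 355 ± 142 CPM with overlap.

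The 3 lower members were transcription factors, and their differences came mainly from WT 1 and WT 2. Ppara, the nuclear receptor that drives fatty acid oxidation genes, had 206 and 198 CPM in WT 1 and WT 2, 31.4 to 40.7 CPM in WT 3 to WT 5, and 25.7 to 39.8 CPM in KO. Its log2 fold change was -1.72 ± 0.54 (SE) with all libraries and -0.16 without those 2. Ebf2, which marks brown fat precursors, had 59.2 and 68.4 CPM in WT 1 and WT 2, 8.59 to 30.1 CPM in WT 3 to WT 5 and 13.3 to 21.2 CPM in KO. Prdm16 had 37.2, 38.7, 15.7, 25.2 and 28.1 CPM in WT 1 to WT 5 and 12.6, 26.1, 18.3, 19.1 and 15.2 CPM in KO 1 to KO 5. WT 3 lay among the KO libraries, and the log2 fold change of Prdm16 went from -0.67 ± 0.28 (SE) to -0.26 without WT 1 and WT 2. It was -0.41 with the Y-linked covariate. With the GC and length trend removed it was -0.70, with an unadjusted p of 0.0148 from the same edgeR test. In the AAV-GFP cohort Prdm16 was at -0.03 ± 0.33 (SE).

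Among lipid handling genes, Angptl4 had no overlap between the groups. Angptl4, a secreted inhibitor of lipoprotein lipase that rises in fasting, stood at 215, 194, 250, 319 and 153 CPM in WT 1 to WT 5 and at 395, 367, 535, 332 and 619 CPM in KO 1 to KO 5. The log2 fold change of 0.99 ± 0.28 (SE) was 0.95 without WT 1 and WT 2 and 0.97 with the GC and length trend removed. Of the other uptake genes, the lipoprotein receptor gene Vldlr and the acyl-CoA synthetase gene Acsl5 had lower means, at 181 ± 70.2 against 89.8 ± 33.6 CPM and at 204 ± 116 against 89.3 ± 44.6 CPM. In all, 1 of 13 uptake genes was higher and 2 lower at an unadjusted p under 0.05.

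In fatty acid synthesis and esterification 0 of 18 genes were higher and 3 lower at an unadjusted p under 0.05. These were the elongase genes Elovl5 and Elovl6 and the acyltransferase gene Gpam, with log2 fold changes of -0.79, -1.22 and -0.72. The desaturase gene Scd1 and the acetyl-CoA carboxylase gene Acaca were highest in WT 1 and WT 2. Acaca had 3560 and 3791 CPM there, 391 to 1252 CPM in WT 3 to WT 5 and 536 to 1732 CPM in KO. The list median was -0.25 with all libraries and 0.31 without WT 1 and WT 2. It was 0.12 with the Y-linked covariate, 0.66 among libraries without Y-linked transcripts and -0.31 with the GC and length trend removed. Its direction thus changed with the fit. Lipolysis and lipid droplet genes had a median of 0.43 (0.47 without WT 1 and WT 2), with 10 of 12 above 0, and Plin5 alone was past an unadjusted p of 0.05. Pnpla2, the first lipase of triglyceride breakdown, had 1976 ± 305 CPM in WT and 3033 ± 1548 CPM in KO. With the GC and length trend removed the median of the list was 0.03.

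Transcripts of the mitochondrial genome took a smaller share of the counts in 3 of 5 KO libraries than in any WT library. The share was 35.0%, 32.0%, 38.9%, 32.3% and 38.8% in WT 1 to WT 5 and 33.2%, 24.9%, 28.2%, 34.5% and 24.6% in KO 1 to KO 5. The library labelled KO 1 and KO 4 lay inside the WT range. The mean difference was -6.32 percentage points, with a two-sided exact permutation p of 0.0635, where the design allows 0.00794 at the smallest. Without the 4 libraries low in Cpeb4 the difference was -2.22 points, with an exact permutation p of 0.8 where 0.1 is the smallest possible. The WT libraries left there, WT 1, WT 2 and WT 4, all held Y-linked transcripts. In the AAV-GFP cohort the share was 31.3% ± 1.76 (SD, n = 3) in WT and 31.3% ± 2.05 in KO. All 13 protein-coding genes of the mitochondrial genome had log2 fold changes below 0, with a median of -0.45, and 3 were lower at an unadjusted p under 0.05.

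The largest of these differences was in mt-Nd5, a subunit of complex I. It stood at 47687, 38829, 16904, 16081 and 23094 CPM in WT 1 to WT 5 and at 17884, 7221, 9187, 11165 and 12059 CPM in KO 1 to KO 5. WT 1 and WT 2 had the highest levels, and the log2 fold change went from -1.31 ± 0.39 (SE) to -0.65 without them. The others were mt-Nd4l and mt-Atp8, at -0.74 and -0.83. The apocytochrome gene mt-Cytb had 51756 ± 9252 CPM in WT and 37888 ± 10737 CPM in KO. With the GC and length trend removed the median of the 13 genes was 0.02.

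Nuclear genes of the respiratory chain leaned the other way. Of 70 genes, 63 had log2 fold changes above 0 and the median was 0.51. It was 0.19 without WT 1 and WT 2, 0.14 with the Y-linked covariate and 0.19 with the GC and length trend removed. In the AAV-GFP cohort the median was -0.28, with 1 of 70 genes above 0. Uqcrc1, a core subunit of complex III, had 1078 ± 166 CPM in WT and 1639 ± 878 CPM in KO. At an unadjusted p under 0.05 there was 1 higher gene, Atp5g1, at 0.248 to 5.10 CPM in WT and at 15.7 and 20.3 CPM in the library labelled KO 1 and in KO 2, whose reads can be split with copies elsewhere, and 1 lower gene, Ndufs1, a large subunit of complex I, at 531 ± 136 and 315 ± 107 CPM.

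Of 19 citric acid cycle genes, 11 had log2 fold changes above 0, with a list median of 0.05, and 3 were lower and 0 higher at an unadjusted p under 0.05. None of the 3 stayed past that p without WT 1 and WT 2. Sucla2, a subunit of succinyl-CoA synthetase, stood at 1494, 1359, 1114, 1091 and 1601 CPM in WT 1 to WT 5 and at 1118, 496, 671, 1049 and 437 CPM in KO 1 to KO 5. Only the library labelled KO 1 reached the WT range, and the log2 fold change was -0.82 ± 0.31 (SE), -0.70 without WT 1 and WT 2. Dld, the dihydrolipoamide dehydrogenase shared by the pyruvate and oxoglutarate dehydrogenase complexes, had a log2 fold change of -1.01, and Idh3a, of NAD-dependent isocitrate dehydrogenase, -0.68. The succinate dehydrogenase gene Sdha had 2383 ± 854 and 1380 ± 626 CPM.

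The pyruvate dehydrogenase genes Pdha1 and Dlat had log2 fold changes of -1.01 and -0.64. Etfa and Etfdh, which pass electrons from fatty acid oxidation to ubiquinone, had -0.65 and -0.87, while Acads, the short-chain acyl-CoA dehydrogenase gene, had 0.82. The fatty acid oxidation list as a whole had a median of 0.05, with 1 of 19 genes higher and 2 lower at an unadjusted p under 0.05. In glycolysis 3 of 24 genes were higher, namely the glucose transporter gene Slc2a1, Aldoa and Gapdh, at 0.95, 0.91 and 1.48, and 2 were lower, Pdha1 and Dlat. Gapdh has many processed copies in the genome, so its level is uncertain, and Aldoa was 0.17 with the GC and length trend removed.

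Ckb, the brain-type creatine kinase of the thermogenic creatine cycle, stood at 12.1, 17.0, 41.0, 35.9 and 69.0 CPM in WT 1 to WT 5 and at 28.9, 39.9, 54.1, 116 and 102 CPM in KO 1 to KO 5. The groups overlapped, with a log2 fold change of 0.96 ± 0.50 (SE). The creatine cycle list had a median of 0.96 over 7 genes, 0.56 without WT 1 and WT 2, and 0 members past an unadjusted p of 0.05.

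Of the 17 circadian clock genes, 4 were lower and 1 higher at an unadjusted p under 0.05. Beside Nr1d2 and Hlf, the lower ones were Clock, with 43.5 ± 18.7 CPM in WT and 22.9 ± 10.6 CPM in KO, and Per3, with 47.2 ± 20.9 and 23.6 ± 9.51 CPM. The higher one was Npas2, a partner of BMAL1 like CLOCK, at 0.200 ± 0.0980 and 0.493 ± 0.0908 CPM. The list median was -0.33, or -0.12 without WT 1 and WT 2. The hour of collection of each mouse was not given in the sources used here.

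Of 15 genes of the integrated stress response, a programme that follows phosphorylation of eIF2α, 14 had log2 fold changes above 0 and the median was 0.55 (0.48 without WT 1 and WT 2, 0.29 with the GC and length trend removed). At an unadjusted p under 0.05 there were 4 higher, Atf5, Chac1, Phgdh and Shmt2, at 0.72, 1.72, 1.07 and 0.57, and 0 lower. Only Atf5 stayed past that p without WT 1 and WT 2, and with the GC and length trend removed Atf5 and Shmt2 were at 0.01 and -0.02. Chac1, a glutathione-degrading enzyme, stood at 0.552, 0.453, 3.07, 1.97 and 2.97 CPM in WT and at 13.7, 5.84, 1.23, 2.54 and 6.25 CPM in KO, with overlapping groups. Atf4, the central factor of the programme, had 52.1 and 57.9 CPM in WT 1 and WT 2 and 97.4 to 211 CPM in the other 8 libraries.

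Of 13 heat shock genes 3 were higher and 1 lower at an unadjusted p under 0.05. Bag3, a co-chaperone of selective autophagy, had 48.1 ± 9.56 CPM in WT and 72.2 ± 16.0 CPM in KO, and the groups did not overlap. Cryab, a small heat shock protein abundant in muscle, stood at 82.2 and 103 CPM in the library labelled KO 1 and in KO 2, where muscle transcripts were also high, and at 5.88 to 31.3 CPM in the other 8. Hspd1, the mitochondrial chaperonin, had 581 ± 172 and 332 ± 153 CPM. Of 22 immediate early genes, which answer acute stimuli within minutes, 1 was higher, Junb, and 1 lower, Nr4a2, and the median was 0.67 or 0.35 without WT 1 and WT 2. Fosb ran from 0.429 CPM in WT 1 to 529 CPM in KO 2, with overlap.

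Of the 13 smooth muscle and pericyte genes, 7 had log2 fold changes above 0 and 6 below, with a median of 0.13, and 3 were lower at an unadjusted p under 0.05. These 3 are described here because they make up that count. Rgs5, a regulator of G protein signalling and a pericyte marker, stood at 364, 342, 378, 413 and 368 CPM in WT 1 to WT 5 and at 237, 311, 169, 275 and 103 CPM in KO 1 to KO 5. Abcc9, the sulfonylurea receptor subunit of pericyte and smooth muscle potassium channels, stood at 39.4, 39.0, 37.2, 41.8 and 35.0 CPM in WT and at 27.6, 32.9, 15.7, 24.2 and 14.6 CPM in KO. Myh11, smooth muscle myosin, had 25.0 ± 7.92 and 13.7 ± 3.21 CPM. For these 3 genes every KO library lay below every WT library, and WT 1 and WT 2 stood with the other WT libraries.

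Their log2 fold changes were -0.77, -0.74 and -0.87 with all libraries, -0.77, -0.67 and -0.78 without WT 1 and WT 2, and -0.28, -0.37 and -0.95 with the GC and length trend removed. With the trend removed Myh11 alone stayed past an unadjusted p of 0.05, and in the AAV-GFP cohort the list median was 0.22, with 10 of 13 genes above 0. The summed level of the list was 531 to 672 CPM in WT and 319 to 624 CPM in KO.

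Skeletal muscle transcripts, which the study followed, were high in 4 libraries of both labels. The summed level of 39 muscle genes was 383, 363, 5543, 179 and 220 CPM in WT 1 to WT 5 and 10491, 11568, 305, 129 and 1831 CPM in KO 1 to KO 5. WT 3, the library labelled KO 1, KO 2 and KO 5 stood high, and KO 4 was the lowest of the 10. The median log2 fold change was 2.02 with all libraries, 1.37 without WT 1 and WT 2 2.41 with the Y-linked covariate, 1.96 with the GC and length trend removed and 0.13 among the 6 libraries without Y-linked transcripts. In the AAV-GFP cohort the median was 2.84, with 27 of 30 tested genes above 0, but Acta1 and Myh1 were low there and uneven in KO. Acta1 had 0.184 ± 0.153 CPM (SD, n = 3) in AAV-GFP WT and 4.53 ± 7.39 CPM in AAV-GFP KO. Myh1 had 0 CPM and 2.15 ± 3.60 CPM, so for both genes the SD in KO exceeded the mean. Myl1 had a log2 fold change of -0.07 ± 0.12 (SE) in that cohort. In the untreated cohort all 39 were above 0, and 1 member, Xirp1, was past an unadjusted p of 0.05. At the study's threshold, a 2-fold change and an adjusted p of 0.5, 26 of the 39 were called higher, against 6.04% of all tested genes. No gene met that threshold without WT 1 and WT 2, with the Y-linked covariate or with the GC and length trend removed. Acta1 ran from 3.10 to 495 CPM in WT and from 1.01 to 1292 CPM in KO, Myh1 from 0.896 to 244 and from 0.397 to 586 CPM, and Myl1 from 34.7 to 101 and from 35.1 to 276 CPM. Of 12 myogenic regulators 6 were tested, with a median of -0.11, and Mef2a, at 88.3 ± 13.3 and 55.3 ± 21.1 CPM, was lower at an unadjusted p under 0.05. Whether neighbouring muscle entered the dissected tissue was not tested.

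Macrophage genes had a median of 0.73 over 12 members, 0.30 without WT 1 and WT 2, and 0 were past an unadjusted p of 0.05. Their summed level ran from 55.9 to 428 CPM in WT and from 86.0 to 582 CPM in KO, highest in WT 4, the library labelled KO 1 and KO 2. The complement gene C1qb had 12.8 ± 9.98 and 29.3 ± 19.5 CPM. The summed level of T cell genes stayed at 1.91 to 8.44 CPM and of B cell genes at 0.666 to 5.49 CPM in all 10 libraries, with 11 of 13 and 6 of 9 genes tested and medians of 0.55 and 0.64. Of 6 lymph node stroma genes 2 were tested, with a median of 0.64. Endothelial genes had a median of 0.35, with Cldn5, a tight junction gene, at 9.91 to 18.0 CPM in WT 1, WT 2 and WT 5 and at 84.3 to 200 CPM in the other 7. Collagen and matrix genes, Schwann cell genes and proliferation genes had medians of 0.25, 0.34 and 0.19, and none of these members was past an unadjusted p of 0.05. Of 26 interferon-stimulated genes 1 was higher, Irf7 at 0.95, and 2 were lower at an unadjusted p under 0.05, among them Gbp3 at -0.62, and the median was 0.06. White fat genes had a median of 0.77, or 0.25 without WT 1 and WT 2, with Agt alone past an unadjusted p of 0.05, at under 6 CPM in every library. In the AAV-GFP cohort the medians were 1.11 for macrophage, 0.53 for collagen and matrix, 0.47 for T cell and 0.61 for interferon-stimulated genes. There 12 of 12, 16 of 16, 11 of 11 and 25 of 26 genes were above 0. Endothelial, B cell, proliferation and white fat medians there were 0.29, 0.57, 0.38 and 0.30, and that of Schwann cell genes was -0.20.

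Ribosomal protein genes had a median of 0.55, with 74 of 78 above 0 and 2 past an unadjusted p of 0.05, Rpsa and Rpl29. Rplp0, of the ribosomal stalk, had 150 and 178 CPM in WT 1 and WT 2, 354 to 468 CPM in WT 3 to WT 5 and 317 to 758 CPM in KO. The list median was 0.12 without WT 1 and WT 2. Of the 21 poly(A) tail enzymes and binding proteins, the machinery with which CPEB proteins act, 16 had log2 fold changes below 0 and the median was -0.31 (-0.15 without WT 1 and WT 2). The deadenylase genes Cnot1 and Cnot6l and the poly(A) polymerase gene Tent4b were lower at an unadjusted p under 0.05, at -0.78, -0.86 and -0.81, and their values without WT 1 and WT 2 were -0.21, -0.48 and -0.40.

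**Figure D4:**
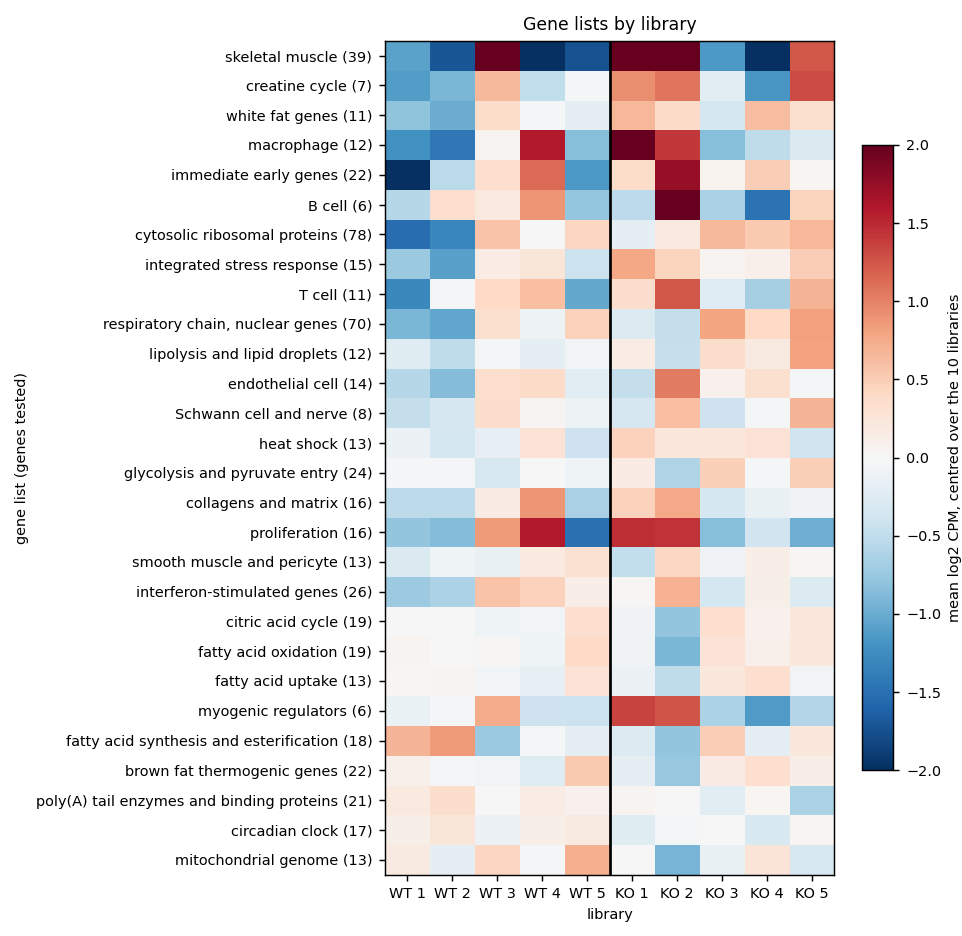
Mean log2 CPM of each gene list in each library, centred on its mean over the 10 libraries (colour, ending at -2 and 2), with lists ordered by their median log2 fold change and the number of tested genes in brackets. WT 1 and WT 2 are low for ribosomal protein and respiratory chain genes, and skeletal muscle is high in WT 3, the library labelled KO 1, KO 2 and KO 5 and low in the rest.

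The AAV-GFP cohort, with separate mice of both genotypes, gave a KO against WT comparison with 3 libraries on each side. Cohort is confounded with virus, time and processing, and the study states the food withdrawal for the untreated mice only. Differences between the cohorts therefore cannot be assigned to any of these alone. Across 17198 genes tested in both cohorts, the log2 fold changes had a Spearman correlation of 0.03, or 0.18 with the GC and length trend removed from the untreated values. These correlations are across genes, which are not independent replicates. Of the 10 genes that led the lower side in the untreated cohort, 8 were also below 0 in the AAV-GFP cohort, with a median of -0.10 and adjusted p-values of 0.588 to 0.997. Of the 10 that led the higher side, 3 were above 0, with a median of -0.06 and adjusted p-values of 0.295 to 0.991. Over all the genes shared, 49.4% were below 0 in that cohort and 50.6% above it.

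Tfrc had a log2 fold change of -0.18 ± 0.27 (SE) there, Nr1d2 -0.09 ± 0.12, Hspb1 -0.44 ± 0.32, Adrb3 -0.15 ± 0.16 and Angptl4 -0.30 ± 0.22. Tmem98 had the closest values of the 20 leading genes, at 1.15 ± 0.31 against 1.21 ± 0.34 in the untreated mice. Rgs5 and Abcc9 had 0.39 ± 0.15 and 0.29 ± 0.12, above 0 where the untreated values were below it. Cpeb2 itself was at -1.18 ± 0.14 with an adjusted p of 0.0200.

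Of the 10 genes past an adjusted p of 0.05 in the AAV-GFP cohort, 9 were lower in KO, and 7 of these 9 had values above 0 in the untreated cohort. They included short mRNAs of mitochondrial proteins. Mrps24, of the mitochondrial ribosome, was at -0.79 ± 0.11 in the AAV-GFP cohort and 0.91 ± 0.45 in the untreated one, Timm13, of the import machinery, at -0.80 ± 0.11 and 0.72 ± 0.45, and Uqcr11, of complex III, at -0.72 ± 0.10 and 0.77 ± 0.49. The copper chaperone gene Atox1 was at -0.65 ± 0.09 and 0.95 ± 0.48. The untreated values of Mrps24, Timm13, Uqcr11 and Atox1 were smaller without WT 1 and WT 2, at 0.53, 0.32, 0.34 and 0.52, and smaller still with the GC and length trend removed, at 0.33, 0.05, 0.02 and 0.18. The difference between cohorts was tested by an interaction term, and 0 of 20604 genes (0%) passed an adjusted p of 0.05 with edgeR, with 1320 at an unadjusted p under 0.05 and a smallest adjusted p of 0.651. DESeq2 called 11. Of these, Myh4, Ckm, Xirp2, Trdn and Mylk4 are skeletal muscle genes that averaged 0 CPM in the AAV-GFP WT libraries, so no fold is given for the difference. Zfp965 was also among the 11, with a log2 fold change of -1.47 in the untreated and 0.71 in the AAV-GFP cohort.

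**Figure D5:**
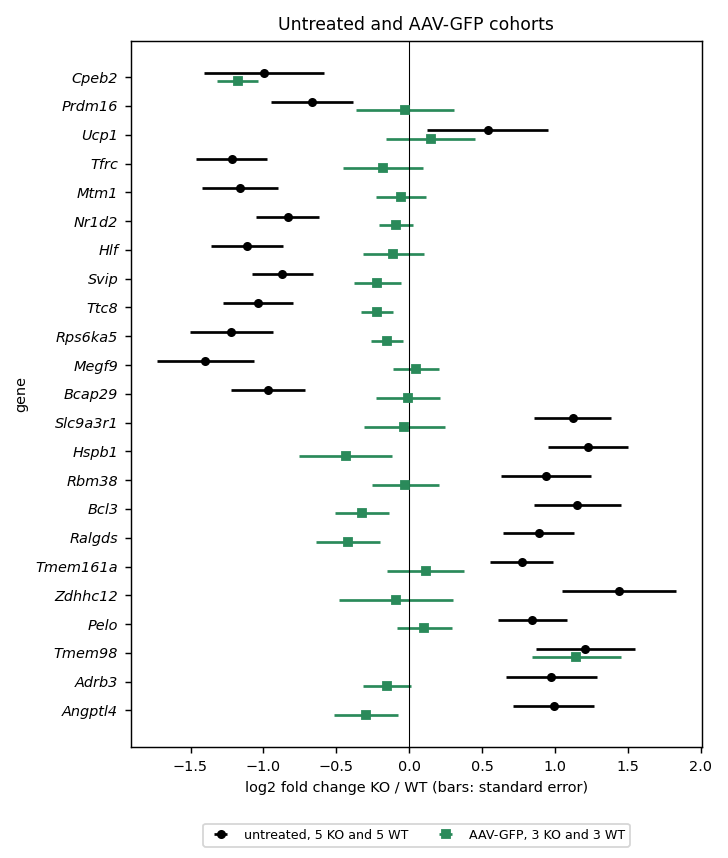
Log2 fold change of KO against WT (horizontal axis) with its standard error for 23 genes in the untreated cohort (circles, 5 KO and 5 WT) and in the AAV-GFP cohort (squares, 3 KO and 3 WT). Cpeb2 and Tmem98 lie at similar values in both, and Tfrc, Mtm1, Hlf and Nr1d2 lie at -0.83 or below in the untreated cohort and between -0.18 and -0.06 in the AAV-GFP cohort.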

How the data were processed

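Interscapular BAT RNA of 10 untreated mice was sequenced, from mRNA libraries made with the SureSelect XT HS2 kit. The authors deposited raw gene counts as whole numbers per Ensembl gene, not normalized. The submitters' processing notes name bcl2fastq 2.20, Trimmomatic 0.36, HISAT2 and GRCm38.p6, and the counting tool, annotation and strand setting are not given in the sources used here. Symbols and positions came from GENCODE M21, which matched 55227 of 55487 gene IDs.

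Counts of the 10 libraries were filtered with filterByExpr, leaving 17869 genes, scaled by TMM and fitted with edgeR 4.0.16 (quasi-likelihood, genotype as the single term, R 4.3.3), with Benjamini-Hochberg adjustment over all tested genes. Standard errors are the log2 fold change divided by the square root of its F statistic. Totals of 55320927 counts or more per library leave little counting error at most of the levels discussed, so there the spread between libraries limits precision. For values under 1 CPM, such as those of Npas2, counting error is larger. Labels give separate replicates, and the mice behind them are separate per the study. Within each group no 2 libraries agreed within counting noise, and WT libraries were not compared with KO libraries in this way. The AAV-GFP contrast used all 12 AAV libraries, and the interaction 16 libraries.

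Named genes were the study's 6 (Cpeb2, Prdm16, Ucp1, Acta1, Myh1, Myl1), up to 10 per direction with the smallest largest p over 3 fits, up to 8 per direction with the largest fold change among genes without overlap, up to 4 of the highest mean in each of 31 gene lists, and members that decide a list's count. Genes averaging under 1 CPM, Y-linked genes, Xist, pseudogenes and provisional symbols were left out of the ranked sets. Members and lists were chosen with earlier results of these data known. Alternatives were other filters, RLE scaling, DESeq2 1.42.0, limma-voom 3.58.1 with sample weights, a replicate block, covariates, GC and length correction (natural splines, 4 degrees of freedom each), and left-out libraries. Low Cpeb4 as a covariate, leaving out the 4 libraries low in Cpeb4, and leaving out WT 1, WT 2 and KO 1 together were chosen after seeing the data. Scripts were tested on simulated data. GC content and length were those of the longest transcript of each gene. A member of the interferon list is not reported here.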

Additional observations from a re-analysis of the deposited data

Results flagged for a closer look

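In groups of 5 libraries, a library counted as far from the rest by Dixon's critical value for its gap to the nearest one, as a part of the group's range. Chance does this in about 1 of 20 groups if values are normally distributed and independent. Gene levels were taken as CPM without a log and the groups share libraries, so that rate may not hold here. Of 286 groups looked at, 22 met the criterion. WT 3 was the highest WT library for the muscle genes Acta1 (495 CPM), Myh1 (244 CPM), Myl1 (101 CPM), Xirp1 (7.39 CPM), Myh4 (918 CPM), Ckm (393 CPM), Trdn (41.6 CPM), Xirp2 (36.8 CPM) and Mylk4 (22.9 CPM). WT 2 was the highest for Tfrc (38.4 CPM), Elmod2 (91.7 CPM) and Nr4a2 (107 CPM). KO 5 was the highest KO library for Bcl3 (54.9 CPM), Rtn4rl2 (4.16 CPM) and Hist1h4h (15.4 CPM). Fosb was highest in WT 4 among WT (289 CPM) and in KO 2 among KO (529 CPM). Among mean log2 CPM of lists, KO 2 was lowest for fatty acid oxidation (8.23) and highest for immediate early genes (6.97), WT 3 lowest for glycolysis (8.21), WT 5 highest for the citric acid cycle (9.81) and KO 5 lowest for heat shock genes (5.90).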

How the results depend on the processing

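No gene passed an adjusted p of 0.05 under any of the 13 other settings or with any 1 library left out. The numbers of genes at 2-fold and an adjusted p of 0.5, 1080 higher and 844 lower, became 3517 and 3390 with no filter on low counts and 0 and 0 in each of 5 settings: without WT 1 and WT 2, with Y-linked transcripts as a covariate, in the libraries without such transcripts, with the GC and length trend removed, and without WT 1, WT 2 and KO 1 together. The higher count was 673 with limma-voom. With 1 library left out they ran from 0 to 1760 and from 0 to 1493, both being 0 without WT 1, WT 2 or KO 5. Without WT 3 they were 1731 and 1424, without WT 4 the higher count was 1760, and without KO 1 the lower count was 1493. At an unadjusted p under 0.05, the 892 higher genes became 1410 with no filter, 1543 with DESeq2 and 1356 with low Cpeb4 as a covariate. They became 313 without WT 1 and WT 2, 563 with the Y-linked covariate, 368 in libraries without Y-linked transcripts and 346 with the GC and length trend removed. The 1944 lower genes became 121, 678, 161 and 813 in these last 4 settings, 795 without WT 1, WT 2 and KO 1, and 1129 without the 4 libraries low in Cpeb4. With 1 library left out the counts ran from 326 to 1388 and from 821 to 2618. They fell to 393 and 821 without WT 1, 466 and 893 without WT 2 and 326 and 1113 without KO 5, the lower count was 1201 without KO 3, and the higher was 1366 without WT 3 and 1388 without KO 1. The interaction gave 11 genes with DESeq2 and 0 to 1 with 1 library left out, the 1 without the second AAV-GFP WT library. The mitochondrial difference ran from -7.68 to -5.21 points with 1 library left out, with an exact permutation p of 0.0397 without KO 1 or without KO 4, and was -2.22 points without the 4 libraries low in Cpeb4. The causes of these shifts were not tested.

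Of 111 named genes, 98 kept their sign in all settings. Without WT 1 and WT 2 the log2 fold change of Acaca was 0.67, of Scd1 0.46 and of Cpeb4 0.96, and without KO 1 as well 0.67, 0.10 and 0.15, with Myh1 at -0.019 and Mylk4 at -0.083. With the Y-linked covariate Acaca, Scd1, Cpeb4 and Cidea were at 0.48, 0.27, 2.37 and -0.059. In libraries without Y-linked transcripts Acaca, Scd1, Cpeb4, Cpeb3, Myl1, Myh4, Mylk4 and Trdn were at 1.55, 1.15, 3.42, 0.041, -0.086, -0.15, -0.016 and -0.10. With limma-voom Acaca, Acta1, Myh1, Myh4, Mylk4, Xirp2 and Cpeb4 were at 0.070, -0.30, -0.27, -0.70, -0.74, -0.94 and 0.35. With the GC and length trend removed Cidea, Cpeb4 and Shmt2 were at -0.44, 0.49 and -0.025. Cpeb4 was at 0.27 and 0.11 without WT 1 and without WT 2, and at 0.18 and 0.19 without KO 3 and without KO 5, the range with 1 library left out being -0.90 to 0.27.

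Replicate numbers did not pair the libraries, since deviations of libraries with the same number correlated at 0.11, -0.04, -0.29, -0.03 and 0.08. With the replicate block the counts were 1313 and 788 at 2-fold and an adjusted p of 0.5 and 1220 and 2150 at an unadjusted p under 0.05, and the mitochondrial difference had an exact permutation p of 0.188.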
